A study of Mus musculus with 12 samples.

Results

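The 2′-5′-oligoadenylate synthetase (OAS) family of B16F10 cells, a transplantable mouse melanoma line, was examined through 8 genes chosen by name among the 27503 genes of the deposited table: Oas1a, Oas1b, Oas1c, Oas1g, Oas2, Oas3, Oasl1 and Oasl2. All 8 passed the filter on low counts. RNA was sequenced from cells with wild-type IRF7 and from cells with the IRF7-C435A form, in which a cysteine of this interferon regulatory factor is replaced by alanine. Each line was studied without treatment (control) and with interferon alpha (IFNα), in 3 libraries for each of the 4 groups. The question, per the series' design text, was how the mutant cells differ from wild-type cells with and without IFNα. The dose and duration of IFNα, the way the substitution was introduced and whether the C435A cells are 1 clone were not stated in the labels. The labels do not say that libraries of a group came from separate cultures, so the p-values rest on the spread among these libraries, part of which may be technical.

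OAS enzymes bind double-stranded RNA, a sign of viral infection, and then join ATP into short 2′-5′-linked oligoadenylates. These are second messengers of the antiviral response, in which viral and cellular RNA is cut and protein synthesis halts. The genes are classical interferon-stimulated genes: type I interferon acts through JAK kinases, STAT proteins and IRF9 on the interferon-stimulated response element (ISRE) in their promoters. The mouse carries several Oas1 copies beside Oas2 and Oas3, and the OAS-like genes Oasl1 and Oasl2 at a separate locus. Oasl1 protein has no synthetase activity and is known to inhibit translation of Irf7 mRNA, whereas Oasl2 retains the activity. Oas1b is the flavivirus resistance gene of wild mice and is cut short by a premature stop codon in most laboratory strains.

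In the deposited coordinates the members lay on chromosome 5 in 2 groups. Oasl2 (ENSMUSG00000029561, chr5:115034997-115050295) and Oasl1 (ENSMUSG00000041827, chr5:115061299-115075974) were both on the plus strand, 11004 bp apart. The other 6 formed a cluster of 191318 bp with 4 further Oas1 genes. Its members were Oas2 (ENSMUSG00000032690, chr5:120868398-120887918, minus), Oas3 (ENSMUSG00000032661, chr5:120891163-120915726, minus), Oas1c (ENSMUSG00000001166, chr5:120938259-120950579, minus), Oas1b (ENSMUSG00000029605, chr5:120950700-120962228, plus), Oas1g (ENSMUSG00000066861, chr5:121014205-121025676, minus) and Oas1a (ENSMUSG00000052776, chr5:121034319-121045584, minus). Oas1c and Oas1b stood head to head with 121 bp between them. These positions do not match GRCm38, the build in the submitters' processing notes, so sequences below are from GRCm38 annotations and carry their own coordinates. Predicted genes on the opposite strand overlapped Oas1c, Oas2 and Oasl1, with 135, 36 and 939 counts over the 12 libraries against 12196, 51275 and 76681 for the members.

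Oas1a and Oas1g are near copies: their coding sequences, both of 1104 bases, were 96.7% identical (36 differences). Of the 150-base stretches of the Oas1a transcript, the length of a read, 32.4% were also found in Oas1g, and 30.1% of those of Oas1g in Oas1a. None of the 150-base stretches of the other 6 members occurred in another gene's transcript. The split of reads between Oas1a and Oas1g is therefore uncertain, while both are distinct from Oas1b, to which their coding sequences were 80.9% and 81.9% identical. The 90 coding bases in which the copies differ most (bases 439 to 528 of each, counted from the A of the start codon) show how reads can be told apart, with the 17 differing bases in capitals:

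Oas1a: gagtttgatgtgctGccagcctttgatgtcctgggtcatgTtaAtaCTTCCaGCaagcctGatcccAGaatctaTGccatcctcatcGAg
Oas1g: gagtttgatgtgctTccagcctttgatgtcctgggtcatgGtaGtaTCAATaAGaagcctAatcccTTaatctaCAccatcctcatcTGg

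The longest reading frame of the annotated Oas1b transcript held 252 codons, against 367 in Oas1a and Oas1g, and the annotation calls the gene a polymorphic pseudogene. The 45 bases that end the Oas1b frame (coding bases 715 to 759) are shown against the aligned bases of Oas1a (730 to 774), with the last codon in capitals, a stop in Oas1b and an arginine codon in Oas1a. They come from the reference genome, and the allele in these cells was not examined.

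Oas1b: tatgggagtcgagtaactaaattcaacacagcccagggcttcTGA
Oas1a: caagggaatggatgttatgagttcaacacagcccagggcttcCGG

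RefSeq promoters (GRCm38.p6, 250 bases before to 50 after the start) were at hand for 6 members, Oas1b and Oas2 having no entry. The ISRE core GAAANNGAAA or its complement TTTCNNTTTC was in 4 of them (Oas1a, Oas1g, Oas1c and Oas3), against 3.44% of all 32851 promoters, and in neither Oasl1 nor Oasl2. The gamma-activated sequence TTCNNNGAA was in Oas1a alone among the 6, against 8.3% of all promoters. The 120 bases before the start, read along each gene, are printed for the 4 with the ISRE core in capitals. In Oas1a and Oas1g, 2 overlapping matches lay 20 and 18 bases before the start. In Oas1c 2 overlapping matches began 114 bases before it on the opposite strand, and in Oas3 1 match began 75 bases before it.

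Oas1a, chr5:120907526-120907645, minus strand: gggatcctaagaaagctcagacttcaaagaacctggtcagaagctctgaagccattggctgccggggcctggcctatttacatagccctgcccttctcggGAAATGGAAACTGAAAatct
Oas1g, chr5:120887614-120887733, minus strand: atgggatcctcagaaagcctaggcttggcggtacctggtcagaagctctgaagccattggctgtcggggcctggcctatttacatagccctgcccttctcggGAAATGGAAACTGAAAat
Oas1c, chr5:120812515-120812634, minus strand: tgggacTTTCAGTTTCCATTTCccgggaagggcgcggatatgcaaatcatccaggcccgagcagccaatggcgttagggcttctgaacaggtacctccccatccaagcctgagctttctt
Oas3, chr5:120777660-120777779, minus strand: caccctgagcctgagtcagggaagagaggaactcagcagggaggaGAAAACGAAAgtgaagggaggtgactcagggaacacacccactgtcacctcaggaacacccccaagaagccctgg

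Levels are FPKM, which the authors scaled for transcript length and library size, so that genes can be set beside each other. Untreated wild-type cells already held much Oas1 RNA. Oas1a stood at 514 ± 4.33 FPKM (SD, n = 3), rank 171 of 27503 genes, and Oas1g at 162 ± 2.81 FPKM, rank 471. The middle of the family was far lower: Oasl1 at 24.5 ± 3.39, Oas1b at 19.7 ± 1.43, Oasl2 at 15.2 ± 2.24 and Oas2 at 13.2 ± 1.91 FPKM. Oas1c stood at 5.49 ± 0.235 FPKM, and Oas3, the largest synthetase of the family, was the lowest member at 1.55 ± 0.160 FPKM. By mean FPKM the order Oas1a, Oas1g, Oasl1, Oas1b, Oasl2, Oas2, Oas1c and Oas3 was the same in the 4 groups. Most neighbours in that order did not overlap between libraries of a group. The exceptions were Oasl1 and Oas1b in wild-type controls, Oas1b and Oasl2 in wild-type cells with IFNα, and Oasl2 and Oas2 in both wild-type groups. Oas1a made up 61.0% to 69.2% of the family's summed FPKM in the 12 libraries and Oas1g 20.0% to 23.1%. In shares of summed counts, which favour long transcripts, Oas1a made up 51.0% to 61.0%.

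**Figure D1:**
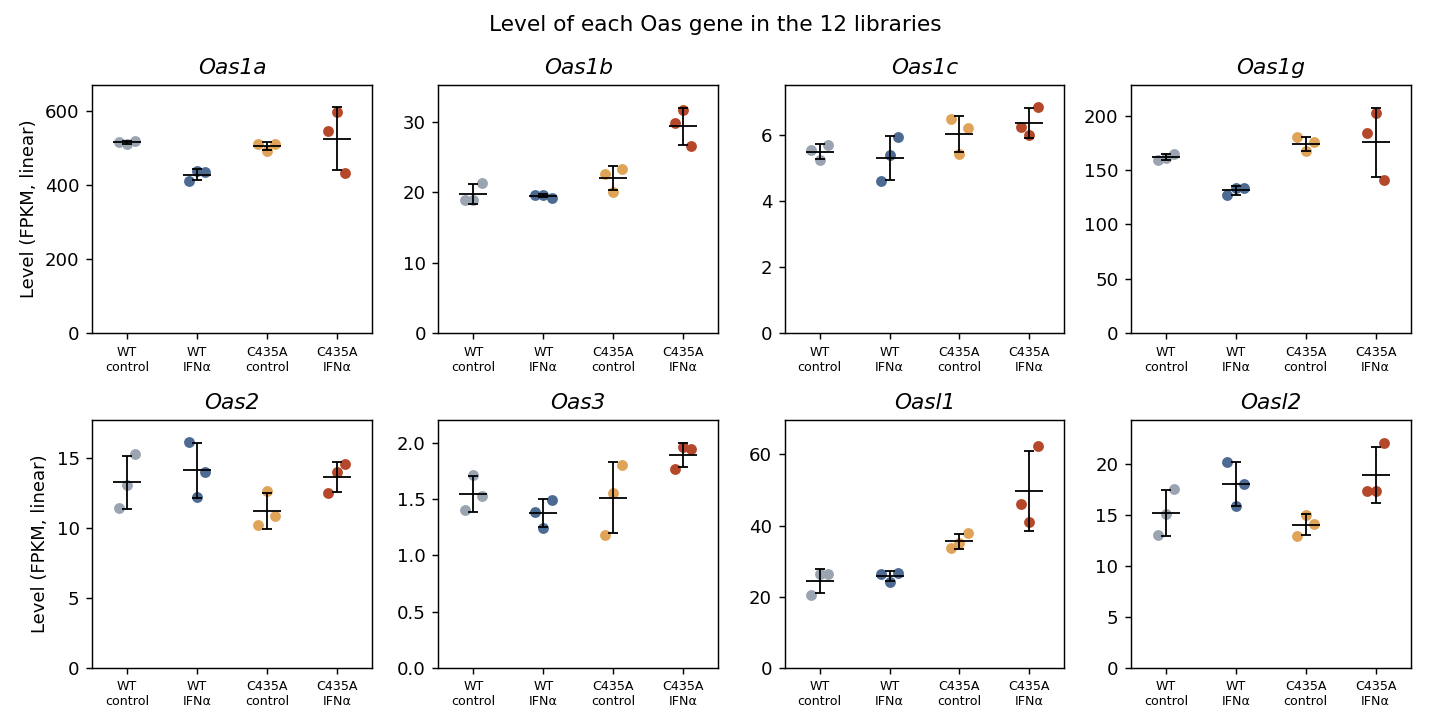
Level in FPKM (linear axis from 0) of each of the 8 members in each library, by group; points are libraries, the wide line is the mean and the bars are 1 SD (n = 3). Oasl1 is 33.7 to 62.5 FPKM in the 6 C435A libraries and 20.6 to 26.6 FPKM in the 6 wild-type libraries.

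Irf7 RNA was lower in C435A cells, at 4.44 to 7.23 FPKM against 8.45 to 12.8 FPKM in wild-type cells. Without IFNα it fell by 1.23 ± 0.17 (log2 fold change ± SE; quasi-likelihood test of edgeR, p-values adjusted by the Benjamini-Hochberg method over 17590 genes, adjusted p = 0.00570). With IFNα the log2 value was −0.62, which did not pass in edgeR but did in DESeq2. In wild-type cells Irf7 averaged 12.3 FPKM without and 9.05 FPKM with IFNα, a difference that did not pass (edgeR adjusted p = 0.798). The Irf7 level separates the lines without overlap but does not show the substitution itself. In 8 libraries (wild-type control 1, the 3 of wild-type IFNα, the 3 C435A controls and C435A IFNα 3) transcripts of 7 lung epithelial genes summed to 38.0 to 59.6 CPM (counts scaled to a common library size), and in the other 4 to at most 0.156. The lung transcripts are thus spread unevenly over the groups, more often with IFNα in wild-type cells and less often with it in C435A cells. The line differences of Oasl1 and Oas1b are given both ways. Other values, with the IFNα effects and their limits, are from the fit without a term for lung transcripts unless stated. The 7 melanocyte markers summed to 7861 to 8457 CPM in wild-type controls and to 7853 to 9374 in wild-type cells with IFNα. In C435A cells they summed to 7021 to 8006 CPM without and 7025 to 7423 with IFNα. In the averaged line difference 0 of the 7 had a positive log2 value. In edgeR 0 of them passed, where 2.8% of all genes did, and DESeq2 called Tyr. The 11 leukocyte markers summed to 80.6 to 124 CPM in wild-type libraries, to 137 to 152 in C435A controls and to 84.1 to 115 in C435A cells with IFNα. The highest were Lyz2 (31.1 to 81.3 CPM), Csf1r (11.7 to 28.7 CPM) and Cd68 (12.4 to 20.1 CPM). The general leukocyte gene Ptprc was at 2.61 to 5.29 CPM, and the T cell genes Cd3e and Cd3g stayed at or below 0.265 CPM. Of 3 markers of plasmacytoid dendritic cells, a strong source of Irf7 and interferon, Siglech was at most 0.178 CPM, while Tcf4 was 3.10 to 5.69 CPM and Bst2, itself an interferon-induced gene, 838 to 1684 CPM. The part of these other cell types in the line differences was not tested, and in bulk RNA fewer cells of a type and less RNA per cell cannot be told apart.

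The clearest difference in the family lay between the lines and concerned Oasl1 and Oas1b. Averaged over control and IFNα, both rose in C435A cells, Oasl1 1.80-fold and Oas1b 1.38-fold, whereas the other 6 members did not pass the test. These were 2 of 8 members, where 2.8% of all 17590 genes passed. The median log2 fold change of the 8 members was 0.30, beside 0.00 over all genes tested.

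Oasl1, the family member that acts on Irf7 mRNA, measured 20.6, 26.4 and 26.4 FPKM in untreated wild-type libraries and 26.5, 24.2 and 26.6 FPKM in treated ones. In C435A cells it measured 33.7, 35.1 and 37.8 FPKM without and 46.0, 40.9 and 62.5 FPKM with IFNα. Every C435A library was above every wild-type library, and C435A IFNα 3 was the highest. The log2 fold change was 0.84 ± 0.11 (adjusted p = 0.00113) averaged over treatments. It was 1.05 ± 0.15 (adjusted p = 0.00722) with IFNα and 0.64 ± 0.15 (adjusted p = 0.136) without, the latter not passing the test although the 3 libraries of each line did not overlap. DESeq2 called the difference without IFNα (0.63 ± 0.16, adjusted p = 0.0131), as did edgeR without C435A IFNα 3 (adjusted p = 0.0324). The call with IFNα was lost without wild-type IFNα library 1 (1.01, adjusted p = 0.0513) or 2 (1.03, adjusted p = 0.0556). Averaged over treatments it held in all 12 fits that left out a library, at 0.74 to 0.91.

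Oas1b, the flavivirus resistance gene, measured 18.9, 18.8 and 21.4 FPKM in wild-type controls and 19.6, 19.7 and 19.2 FPKM with IFNα. In C435A cells it measured 22.6, 20.0 and 23.3 FPKM without and 29.8, 31.7 and 26.6 FPKM with IFNα. All C435A libraries with IFNα were above all wild-type libraries, while the untreated groups overlapped. Oas1b rose by 0.47 ± 0.07 on the log2 scale averaged over treatments (adjusted p = 0.00476) and by 0.68 ± 0.11 with IFNα (adjusted p = 0.0114). Without IFNα the value was 0.26 ± 0.10 (adjusted p = 0.40). The call with IFNα was lost without any of the 3 wild-type IFNα libraries (adjusted p 0.0514 to 0.0720), each time with a log2 value of at least 0.63. Averaged over treatments it held in all 12 such fits, at 0.43 to 0.50.

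Both differences were also read within the libraries with and without lung transcripts. Among the 4 wild-type and 4 C435A libraries that hold them, Oasl1 was 20.6 to 26.6 against 33.7 to 62.5 FPKM, a ratio of means of 1.73. Among the 2 and 2 libraries without them it was 26.4 against 40.9 to 46.0 FPKM, a ratio of 1.65. Oas1b was 1.19 times higher in C435A cells in the first set and 1.53 times in the second, again with no overlap. The set without lung transcripts held only untreated wild-type and only treated C435A libraries, so its ratios cannot tell line from treatment. In the set with them, wild-type libraries were mostly treated and C435A libraries mostly untreated. With a term for the lung transcripts in the fit, the line difference of Oasl1 with IFNα still passed, and that of Oas1b missed the threshold (0.62 ± 0.13, adjusted p = 0.0529).

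Compared group by group, 0 of 8 members passed without IFNα in edgeR, where 0.165% of all genes did. At an unadjusted p under 0.05 there were 2 (Oasl1 and Oas1b), beside 10.7% of all genes. DESeq2 called 1 (Oasl1), where it called 232 of 18379 genes, and limma on log2 FPKM called 0. With IFNα, 2 of 8 passed in edgeR, where 0.597% of all genes did. An unadjusted p under 0.05 was found for 6 members and for 13.71% of all genes. DESeq2 called 5 members, where it called 638 of 13081 genes, and limma on log2 FPKM called 2. Every C435A library with IFNα was above every wild-type one for Oasl1, Oas1b, Oas1c, Oas1g and Oas3. The share of all genes that separate in this way was not counted, so this is a description only. Oas1g was 127, 134 and 133 FPKM in wild-type cells with IFNα and 184, 203 and 141 FPKM in C435A cells with IFNα. Its log2 difference of 0.51 ± 0.13 missed the threshold (adjusted p = 0.0942), passed in DESeq2 (adjusted p = 0.00464) and was 0.63 without C435A IFNα 3 (adjusted p = 0.0224). Averaged over treatments Oas1g stood just outside the threshold in edgeR, at 0.36 ± 0.09 (adjusted p = 0.0514). It passed there by DESeq2 (0.35, adjusted p = 0.00427), with a stricter filter on low counts (0.36, adjusted p = 0.0334), with a term for lung transcripts (0.35, adjusted p = 0.0451) and without C435A IFNα 3 (0.42, adjusted p = 0.00938). Oas3, 1.25 to 1.49 FPKM in wild-type and 1.77 to 1.97 FPKM in C435A cells with IFNα, had a log2 value of 0.55 ± 0.17 (adjusted p = 0.159). Oas2 and Oasl2, both active synthetases, showed the smallest line differences with IFNα, at 0.05 ± 0.12 and 0.17 ± 0.13. Their 95% limits reached at most 1.24-fold and 1.35-fold higher in C435A cells.

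**Figure D2:**
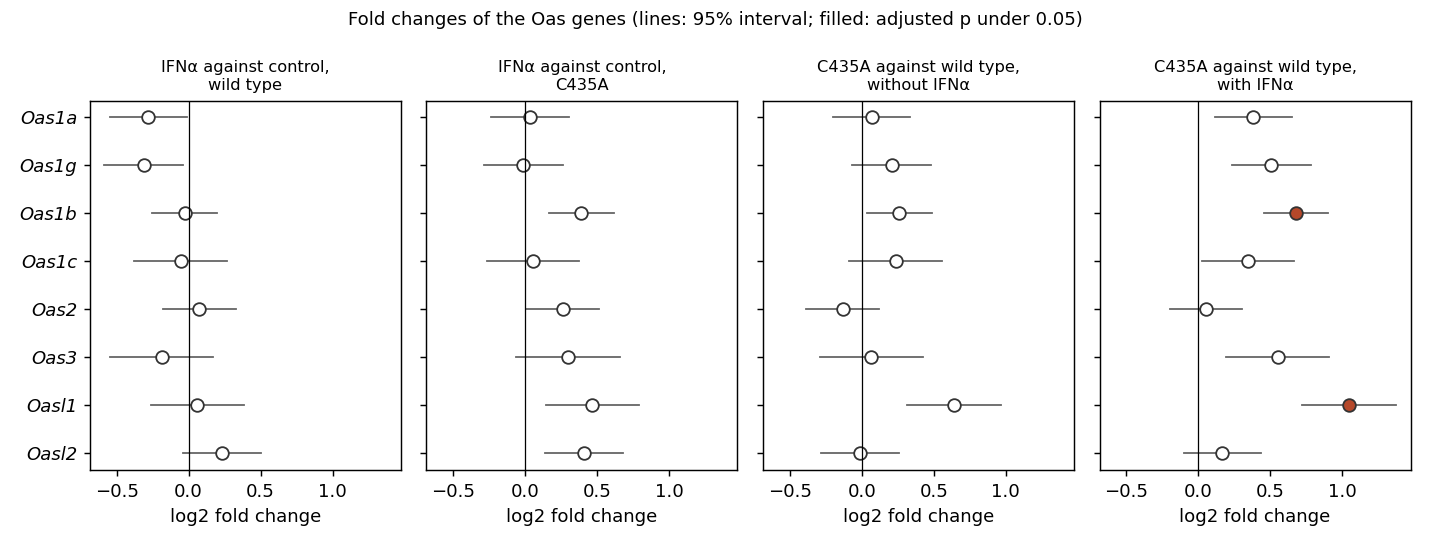
Log2 fold change (horizontal axis) of the 8 members in 4 comparisons, with the 95% interval as a line; filled points passed an adjusted p of 0.05 in edgeR. Only Oas1b (0.68) and Oasl1 (1.05) in C435A against wild-type cells with IFNα are filled.

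No member passed the edgeR test for IFNα in either line. In wild-type cells 0 of 8 members passed in edgeR, where 0.0227% of all genes did. DESeq2 and limma also called 0. In edgeR 2 had an unadjusted p under 0.05, both lower with IFNα, as did 5.44% of all genes in either direction. Oas1a was 516, 509 and 518 FPKM in controls and 411 to 437 FPKM with IFNα, and Oas1g was 159 to 165 FPKM without and 127 to 134 FPKM with IFNα. Neither gene overlapped between the groups, though the share of all genes that separate in this way was not counted. The 2 differences, −0.28 ± 0.13 and −0.31 ± 0.13, had adjusted p-values of 0.902 and 0.840. The member with the highest value was Oasl2, at 0.23 ± 0.13 (adjusted p = 0.966). Across the 8 members the values ran from −0.31 to 0.23, with a median of −0.04 beside 0.02 over all genes.

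In C435A cells given IFNα, 0 of 8 passed in edgeR, where 0.00569% of all genes did. DESeq2 called 1, Oas1b (0.40 ± 0.11, adjusted p = 0.0305), where it called 185 of 17846 genes, and limma called 0. In edgeR 4 members had an unadjusted p under 0.05, as did 10.32% of all genes. Of these, Oasl1 (0.47 ± 0.15), Oasl2 (0.41 ± 0.13) and Oas1b (0.39 ± 0.10) were higher in all 3 treated libraries than in all 3 controls. Their adjusted p-values were 0.304 to 0.368, and the share of all genes that separate in this way was not counted. Oasl2 was 13.0, 15.0 and 14.1 FPKM in C435A controls and 17.3, 17.3 and 22.1 FPKM with IFNα. Oas2 was 10.2 to 12.6 FPKM without and 12.5 to 14.5 FPKM with IFNα, ranges that overlapped narrowly. Oas1a, at 491 to 511 FPKM without IFNα, spread from 431 to 597 FPKM with it, and C435A IFNα 3 alone lay below the controls. That library was also the lowest of its group for Oas1g and the highest for Oasl1, Oasl2 and Irf7, and the only one of its group with lung transcripts; their part in this was not tested.

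The upper 95% limit of the fold change with IFNα was under 2-fold for 8 of 8 members in wild-type cells and for 8 of 8 in C435A cells. The widest reached 1.42-fold in wild-type cells (Oasl2) and 1.73-fold in C435A cells (Oasl1). Averaged over both lines 0 of 8 passed in edgeR, where 0.171% of all genes did. There were 3 at an unadjusted p under 0.05, beside 10.21% of all genes. Limma called 0 and DESeq2 called Oasl2 alone, where it called 291 of 11492 genes. Oasl2 had a log2 value of 0.32 ± 0.09 (edgeR adjusted p = 0.207, DESeq2 adjusted p = 0.0310).

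Whether IFNα acted differently in the 2 lines was tested as an interaction. In edgeR 0 of 8 members passed, where 0.0% of all genes did. DESeq2 and limma called 0 as well. Oas1b alone had an unadjusted p under 0.05 in edgeR (0.42 ± 0.15, adjusted p = 0.916), as did 5.17% of all genes. All 8 values were positive, from 0.11 (Oas1c) to 0.48 (Oas3), with a median of 0.31 beside −0.02 over all genes. The members share libraries, and Oas1a and Oas1g share reads, so the 8 signs are not 8 independent observations. The lung transcripts also run in opposite directions with IFNα in the 2 lines, and their part in these values was not tested. With a term for them in the fit, 0 of 8 members passed for the interaction or for IFNα in either line.

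Ratios of members within a library do not depend on how libraries are scaled, and 4 were formed after the values above had been seen, so they are given without a test. Oasl1 to Oasl2, adjacent genes of the OAS-like locus, was 1.58, 1.75 and 1.51 in untreated and 1.31, 1.52 and 1.47 in treated wild-type libraries. In C435A cells it was 2.60, 2.33 and 2.69 without and 2.66, 2.36 and 2.83 with IFNα. All 6 C435A libraries were above all 6 wild-type libraries, and the 2 treatments of a line lay close together. Oas1g to Oas1a was 0.306 to 0.318 in wild-type and 0.327 to 0.353 in C435A libraries, a small shift, also without overlap, on which shared reads bear. Oas1b to its head-to-head neighbour Oas1c was 3.25 to 4.27 in wild-type and 3.49 to 5.30 in C435A libraries and overlapped. Oas1b to Oas1a overlapped too, at 0.0367 to 0.0478 against 0.0408 to 0.0616, with the 3 C435A libraries with IFNα above all others.

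**Figure D3:**
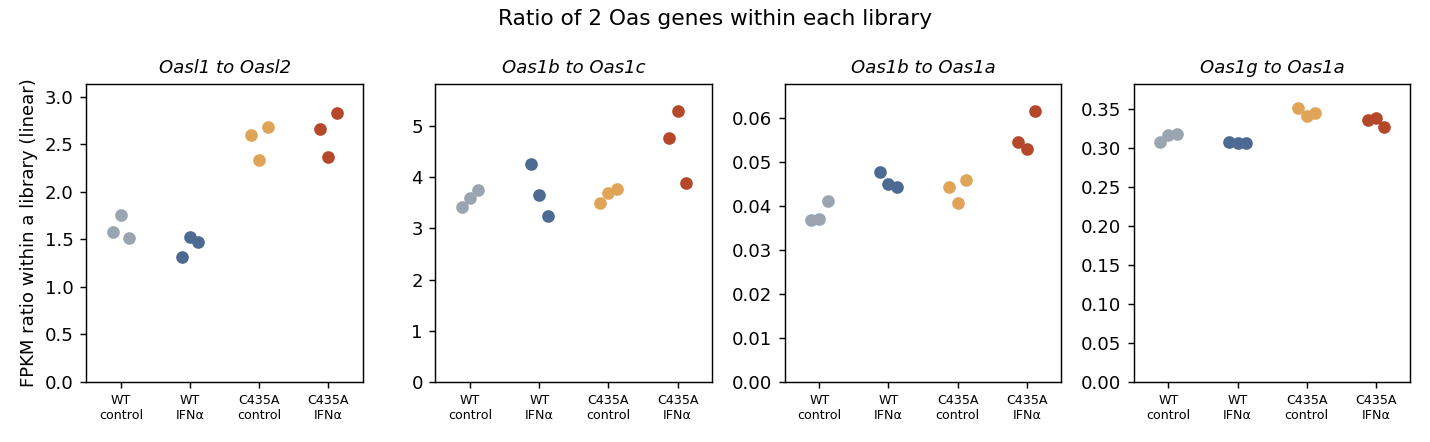
FPKM ratio of 2 members within each library (linear axes from 0), by group; each point is a library. The Oasl1 to Oasl2 ratio is 1.31 to 1.75 in the 6 wild-type and 2.33 to 2.83 in the 6 C435A libraries.

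Along the cluster the line difference varied from gene to gene. Averaged over treatments it was −0.04 ± 0.08 for Oas2, 0.31 ± 0.12 for Oas3, 0.29 ± 0.11 for Oas1c, 0.47 ± 0.07 for Oas1b, 0.36 ± 0.09 for Oas1g and 0.22 ± 0.09 for Oas1a. Of these 6, edgeR called Oas1b, and DESeq2 called Oas1b and Oas1g. Of the 4 other Oas1 genes, Oas1d, an Oas1 gene known from the ovary, rose by 0.87 ± 0.17 (adjusted p = 0.0152) at low levels, 0.543 to 0.944 FPKM in wild-type and 0.858 to 1.95 FPKM in C435A libraries. Oas1e and Oas1f, at most 0.119 FPKM, did not pass the filter on low counts, and Oas1h passed it at 0.161 FPKM at most, with a standard error of 1.17 that leaves its value uninformative. Of 12 genes that flank the 2 loci (3 on each side), 0 passed any of the 7 comparisons in edgeR. At an unadjusted p under 0.05 there were 0 to 2 per comparison, beside 5.17% to 18.1% of all genes. Limma called 0. DESeq2 called 1, Ptpn11, in the averaged line difference, where it called 1236 of 15197 genes. Ptpn11 was lower in C435A cells (−0.40 ± 0.12 in edgeR).

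**Figure D4:**
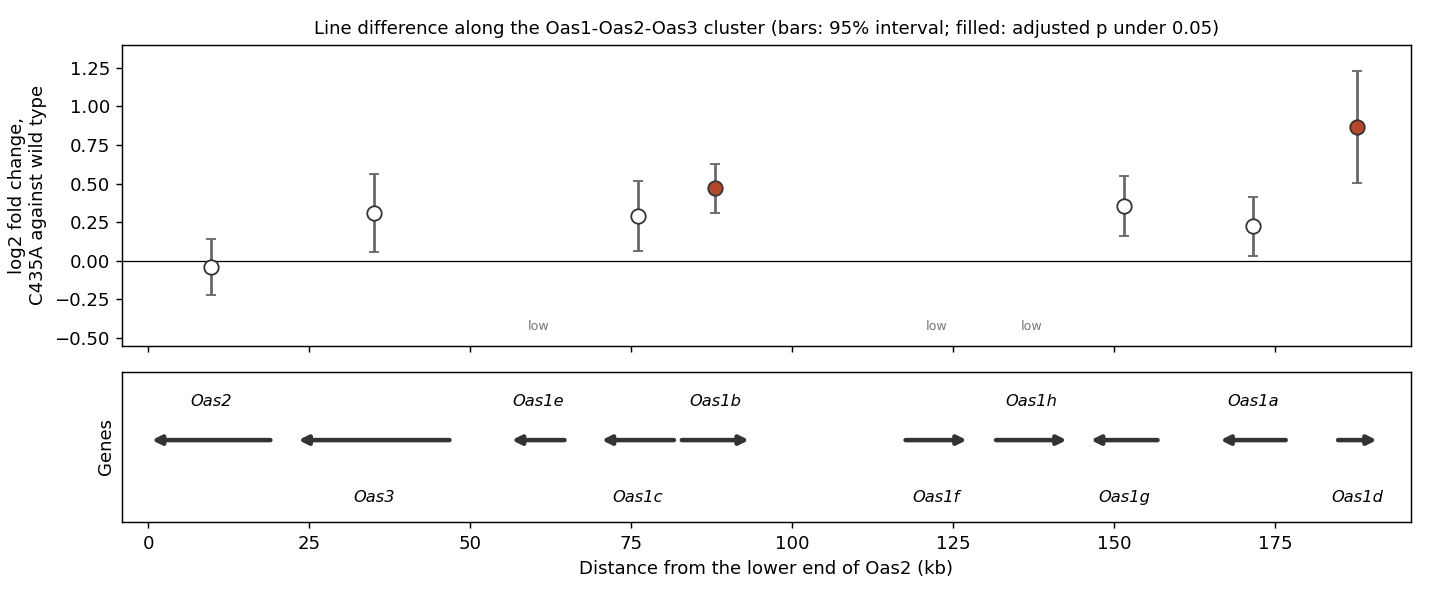
Log2 fold change of C435A against wild-type cells averaged over treatments, with 95% intervals, placed along the Oas1-Oas2-Oas3 cluster by distance from its lower end (kb); arrows show gene span and strand, "low" marks genes too low to be plotted, and filled points passed an adjusted p of 0.05 in edgeR. Oas1b (0.47) and Oas1d (0.87) are filled, while Oas2 lies at −0.04.

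Downstream of the synthetases, 3 genes tied to oligoadenylate metabolism and response were read for comparison. They were Abce1, an ATP-binding protein of ribosome recycling (7.98 FPKM on average over the 12 libraries), Pde12, which degrades oligoadenylates (0.749 FPKM), and Akap7, of a family with phosphodiesterase activity toward them (1.68 FPKM). In edgeR 0 of the 3 passed in any of the 7 comparisons. Pde12 alone had an unadjusted p under 0.05, for the averaged line difference (−0.30 ± 0.13, adjusted p = 0.238), as did 18.1% of all genes. It measured 0.684 to 1.16 FPKM in wild-type and 0.501 to 0.782 FPKM in C435A libraries, which overlapped. DESeq2 called 0, and limma, whose filter kept 2 of them, called 0.

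A list of 14 genes that control OAS transcription held receptor subunits, JAK kinases, STATs, IRFs and feedback inhibitors. Of these, 3 passed in the averaged line difference in edgeR, where 2.8% of all genes did. At an unadjusted p under 0.05 there were 5 of 14, beside 18.1% of all genes. Irf7 fell by 0.93 ± 0.12 (adjusted p = 0.00113), the kinase gene Jak1 fell by 0.33 ± 0.08 (adjusted p = 0.0497), and Irf1 rose by 0.43 ± 0.07 (adjusted p = 0.00583). DESeq2 called the same 3, where it called 1236 of 15197 genes. Limma on log2(FPKM + 1) called Irf7 alone of the 12 that passed its filter. Irf1, an activator of ISRE-bearing genes, was also the only 1 of the 14 that edgeR called for IFNα. Its value was 0.71 ± 0.10 in wild-type cells (adjusted p = 0.0202), where 0.0227% of all genes passed. Averaged over both lines it was 0.69 ± 0.07 (adjusted p = 0.00171), where 0.171% of all genes passed. DESeq2 added the feedback inhibitor Socs1 in C435A cells and averaged over both lines. Limma called 0 of 12 for IFNα in wild-type cells, and Irf1 and Socs1 averaged over both lines.

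Of 10 other genes that sense or act on double-stranded or foreign RNA, 3 passed in the averaged line difference in edgeR, where 2.8% of all genes did. At an unadjusted p under 0.05 there were 4 of 10, beside 18.1% of all genes. The 3 that passed were each higher in C435A cells. These were Zbp1, a sensor of Z-form nucleic acid (0.76 ± 0.09, adjusted p = 0.000859), Isg20, an exonuclease (0.68 ± 0.08, adjusted p = 0.000417), and Dhx58, a regulator of RIG-I-like receptors (0.35 ± 0.09, adjusted p = 0.0470). Limma called Zbp1 and Isg20 but not Dhx58. DESeq2, which called 1236 of 15197 genes, called these 3 and also Ddx58, the RIG-I gene. Ddx58 was lower in C435A cells (−0.28 ± 0.09 in edgeR, adjusted p = 0.126). Zbp1 was 26.1 to 38.3 FPKM in wild-type and 48.5 to 54.4 FPKM in C435A libraries, and Isg20 was 15.4 to 20.9 against 24.4 to 28.7 FPKM. Neither overlapped between lines, as with Oasl1, but the share of all genes that separate in this way was not counted. The median of the 10 genes was −0.08, so the list as a whole did not sit above the median of all genes.

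Across the 12 libraries, members followed each other in 2 ways (Pearson's r of log2(FPKM + 1), a description, since the points share groups and scaling). Oas1a and Oas1g, which share reads, had r = 0.957, Oas2 and Oasl2 r = 0.863, and Oasl1 and Oas1b r = 0.802. Oas1a against Oas2 and Oasl2 had r = −0.351 and −0.463. Irf7 ran opposite to Oasl1 (r = −0.675) and Oas1b (r = −0.646). The lines differ in each of these genes, so these values do not show a relation within a line. Among C435A libraries, IFNα 3 was the highest for both Irf7 (7.23 FPKM) and Oasl1 (62.5 FPKM). Among 8202 genes of at least 1 FPKM on average, the most like to Oasl1 were Slc9a3r2 (0.947), Stard3 (0.943) and Vps72 (0.941). For Oas1b they were Mettl21a (0.955), Anks3 (0.954) and Hemk1 (0.947), for Oasl2 Igfbp4 (0.956), Tmem97 (0.953) and Noc2l (0.952), and for Oas2 Rpusd2 (0.975), Xrcc3 (0.956) and Evc (0.950). For Oas1a the nearest gene was Oas1g, followed by Fsd1 (0.922) and Wdr73 (0.915). After Oas1a, those nearest to Oas1g were Pebp1 (0.940) and Nudt16l1 (0.927). Oas1c and Oas3 had weaker likenesses, led by Prap1 (0.868), Mrpl12 (0.842) and H3c8 (0.840), and by Mettl22 (0.892), Htra2 (0.869) and Adprs (0.861).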

How the data were processed

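RNA of 12 B16F10 libraries (4 groups of 3, groups and replicate numbers from the sample titles) was poly(A)-selected, built by the dUTP method and read as pairs, per the labels' protocols. The build GRCm38 and the tools HISAT2 2.0.4, StringTie 1.3.4d, UMI-tools, cutadapt 1.9, edgeR and DESeq2 are listed in the submitters' processing notes, without their roles. On the counting of reads, the use of strand and the handling of reads that match several Oas1 copies, nothing is given in the sources used here. The authors deposited whole-number counts, unscaled for depth, and, per the file headers, FPKM, scaled by the authors for length and library size. Counts per library totalled 60511573 to 75927461. Of low counts (1 to 30), 33.6% were multiples of 4, against 23.3% of whole numbers in that range, so 1 count is not 1 fragment and no counting interval is given.

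Members and lists were chosen with earlier results of these data known. Counts were tested in edgeR 4.0.16 (R 4.3.3; TMM scaling, default filter, 17590 genes, quasi-likelihood test, two-sided, Benjamini-Hochberg over all genes, threshold 0.05) in 1 fit of 4 group means (common biological coefficient of variation 28.9%), with 7 contrasts. Intervals are 95% intervals of that fit. The code was tested on simulated counts. Alternatives were DESeq2 1.42.0, DESeq2 size factors, library totals, no filter, a filter of 1 CPM in 3 libraries, limma 3.58.1 on log2(FPKM + 1) or log2(FPKM + 0.1), each library left out, a replicate block, a term for lung transcripts and summed Oas1 copies. Limma tested genes of at least 1 FPKM in at least 3 libraries, and its fold changes understate those of low genes. Named genes were the members, the other Oas1 genes, 3 pathway genes, Irf7, list genes past the threshold, 3 flanking genes a side and the 3 most like genes of each member; some listed genes are not reported here. Coding sequences are the longest reading frames of GRCm38 transcripts.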

Additional observations from a re-analysis of the deposited data

How the results depend on the processing

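Of 1260 values of single members under 23 alternative settings, none that passed the test changed sign, 7 lost the threshold and 12 gained it. Another 50 changed sign without passing, for values of at most 0.11. The averaged line differences of Oasl1 and Oas1b passed under every alternative that keeps the gene apart, at 0.72 to 0.91 and 0.36 to 0.50. The number of members called in C435A against wild-type cells with IFNα, 2 in edgeR, was the least steady. DESeq2 called 5 (Oas1a, Oas1b, Oas1g, Oas3 and Oasl1), but it also called 638 of 13081 genes, against 105 of 17590 in edgeR. There was 1 by limma on log2(FPKM + 1) without a filter and 1 with a term for lung transcripts. With the Oas1 copies summed it was 1 of 5 features. When a library was left out there were 0 to 3. The 0 came without wild-type IFNα library 1 or 2, 1 without library 3, and 3 (Oas1g added) without C435A IFNα 3. Without IFNα the count of 0 became 1 by DESeq2, and 0 to 1 when a library was left out (1 without C435A IFNα 3). For IFNα in C435A cells and averaged over both lines it became 1 by DESeq2 in each. Averaged over treatments, the line count of 2 became 3, with Oas1g added, by DESeq2, which called 1236 of 15197 genes there. It also became 3 with the stricter filter, with the lung term and without C435A IFNα 3. With the copies summed it was 1 of 5, where Oas1 as a whole had 0.27 ± 0.09 (edgeR adjusted p = 0.120). The cause of these shifts was not tested, other than that summing leaves 5 features and that a left-out library leaves 2 in its group.

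Over all genes, calls in the averaged line difference were 332 higher and 161 lower with TMM scaling, but 169 and 193 with library totals, and with IFNα 83 and 22 against 32 and 17. Without IFNα they were 15 and 14 against 10 and 15. On log2(FPKM + 0.1) the median of all genes in the averaged line difference was −0.11, where Oasl1 and Oas1b also passed. The replicate numbers did not pair the libraries: in 18 same-numbered pairs the correlation of deviations from the group means was −0.236 to 0.087. With the replicate number as a block, the calls numbered 2 of 8 members in the averaged line difference and 2 with IFNα, Oasl1 and Oas1b each time, and 0 elsewhere, as without it. The SD of log2 ratios between libraries of a group was 0.173 to 0.408 over genes with high counts. How much of it is counting error was not measured.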
